A study of Homo sapiens with 15 samples.

Results

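The 10 genes described here make up the SREBP machinery and the first committed steps of fatty acid synthesis: the transcription factors SREBF1 and SREBF2, the escort SCAP, the retention factor INSIG2, the proteases MBTPS1 and MBTPS2, and the enzymes ACLY, ACACA, ACACB and FASN. They were picked by name as genes with these functions, and all 10 were among the 17272 genes of the deposited expression table. RNA sequencing had been done on LNCaP, an androgen-responsive line of human prostate cancer cells, after 2 days of starvation in charcoal-stripped serum, which is poor in steroids. In the first group (R1881, 10 libraries) the cells had received the synthetic androgen R1881 at 1 nM with DMSO, as named in the labels. In the second group (combination, 5 libraries) they had received R1881 at 1 nM together with the androgen receptor antagonist darolutamide at 2 µM. Both groups were harvested after 22 h, and each library is 1 sample of this 1 cell line. Group sizes and doses follow the sample labels, whereas the study's methods state the opposite group sizes and a higher dose of R1881. No group without androgen was analysed here, so every comparison is of darolutamide on top of R1881.

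SREBPs are transcription factors that are made as membrane proteins of the endoplasmic reticulum. When sterols are scarce, SCAP escorts the precursor to the Golgi apparatus, where the site-1 protease (MBTPS1) and the site-2 protease (MBTPS2) release the part that enters the nucleus, and INSIG proteins hold the SCAP-SREBP complex back when sterols are abundant. The product of SREBF1 mainly drives genes of fatty acid synthesis and that of SREBF2 mainly genes of cholesterol synthesis and uptake. In de novo lipogenesis ATP citrate lyase (ACLY) makes cytosolic acetyl-CoA, acetyl-CoA carboxylase (ACACA) turns it into malonyl-CoA, and fatty acid synthase (FASN) builds palmitate from both. Prostate cancer cells are known for high lipogenesis, and androgens are known to raise many of these genes in LNCaP.

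Each library held 15830745 to 25317567 reads over the listed genes. KLK3, which encodes PSA, and FKBP5, both classical androgen-induced genes, were lower in the combination (log2 fold changes -1.36 and -3.30, limma adjusted p = 3.26e-10 and 1.37e-18), with no overlap between groups. The 8 luminal prostate markers summed to 7523 to 8659.7 CPM in R1881 and to 4523 to 4789.8 CPM in the combination, where CPM is the scaled read count of the deposited table. They include KLK3 and did not move as one: 5 were lower and 2 higher (limma adjusted p under 0.05), against 23.7% and 22.8% of all genes. Fibroblast markers (3 of 6 in the table, not COL1A2, DCN or PDGFRB) summed to 6.36 to 10.5 CPM in R1881 and to 13.5 to 30.6 CPM in the combination. The single endothelial marker in the table stood at 2.08 to 2.84 and 3.56 to 4.10 CPM and the single basal marker at 0.706 to 1.44 and 0.528 to 0.878 CPM. No leukocyte or adipocyte marker was in the table, and the part of these markers in the results below was not tested. The numbers in the library labels form 3 runs, 51 to 55 and 71 to 75 for R1881 and 86 to 90 for the combination. A run here is a stretch of consecutive numbers, and the labels do not say whether it was a batch. Treatment and run cannot be told apart. Combination replicate 4 stood apart: in it genes with a GC content of at least 61.4% were raised over genes of at most 38.5% by 1.063 on the log2 scale, relative to the mean of all libraries. This GC trend was -0.679 to -0.084 in the other combination libraries and -0.384 to 0.657 in R1881. Results on the GC-rich members are therefore given with and without that library. The share of mitochondrial transcripts (2.648 to 3.021% in R1881, 3.119 to 3.939% in the combination) and that of the 20 most abundant genes (6.466 to 6.802% and 7.331 to 8.121%) also differed between groups without overlap, and their part in the results was not tested.

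In the combination 6 of the 10 genes were lower and 2 higher, while the remaining 2 missed the threshold of the test (limma on log2(CPM + 0.5), adjusted p under 0.05 over all genes). Lower were SREBF2, SCAP, MBTPS2, ACLY, ACACA and FASN, higher were INSIG2 and ACACB, and SREBF1 and MBTPS1 did not pass. Their log2 fold changes reached from -1.13 in FASN to 0.92 in INSIG2 around a median of -0.39. Over all 17272 genes the median was 0.00, and 23.7% of genes were lower and 22.8% higher by the same test. Scaled by library totals instead, 3030 genes were lower and 5326 higher in place of 4098 and 3946, and the median of all genes was 0.066, while the 10 genes gave 6 lower and 2 higher again and only MBTPS1 turned direction, to 0.02. In ACLY, ACACA and MBTPS2 every combination library was below every R1881 library, which held for 12.6% of all genes, and in INSIG2 every one was above, which held for 10.8% of all genes. In bulk RNA, fewer cells that express a gene and less RNA per cell cannot be told apart.

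**Figure D1:**
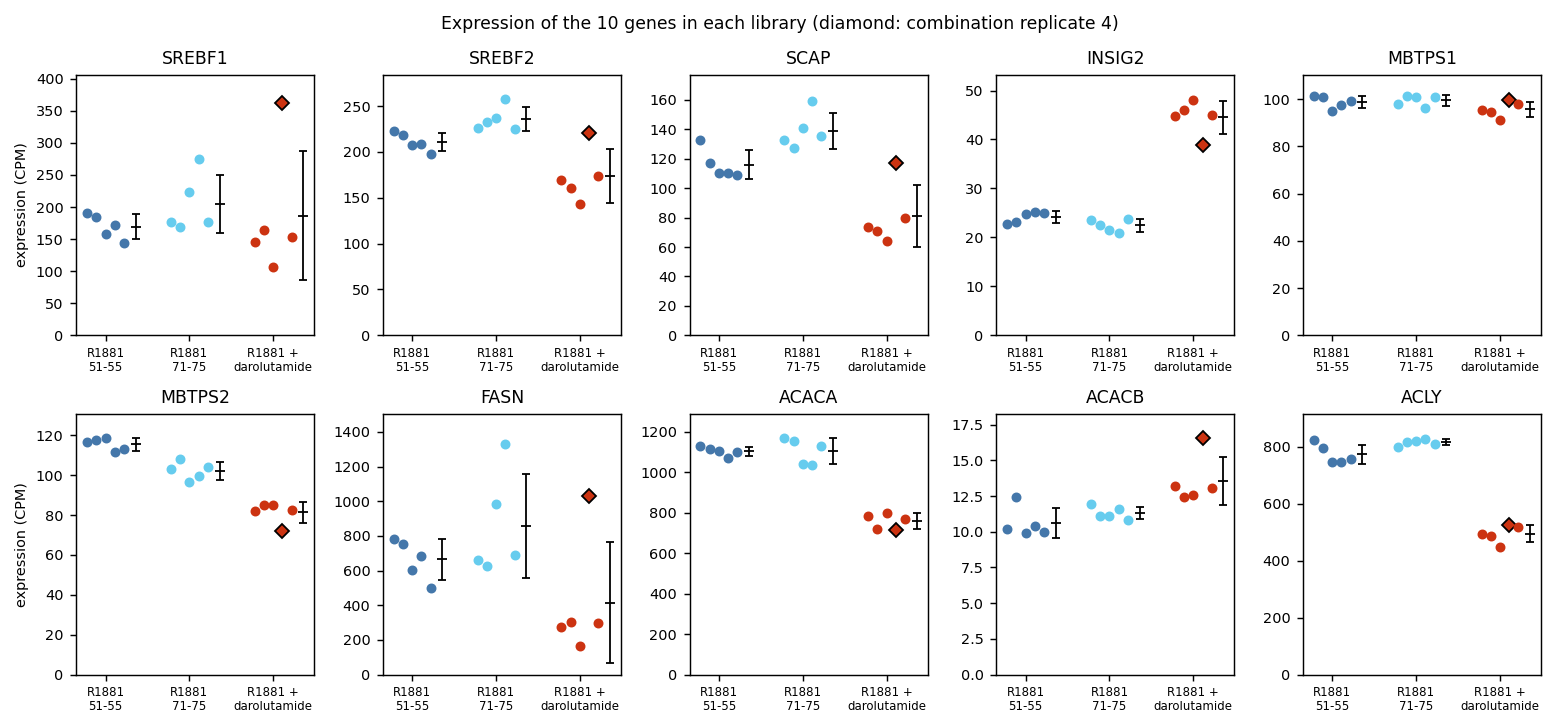
Expression (CPM, linear axis from 0) of the 10 genes in each library. Points are libraries, placed in R1881 libraries 51 to 55, R1881 libraries 71 to 75 and the combination, with the mean and SD beside each set. The diamond is combination replicate 4. ACLY, ACACA, MBTPS2 and INSIG2 separate the treatments, whereas in FASN and SREBF1 the diamond lies far above the other combination libraries, at 1029.8 and 363 CPM.

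The transcription factors differed in how clearly they responded. SREBF2 (chr22:41833105-41907306, plus strand) ranged from 198 to 258 CPM in R1881, with a median of 224. In combination replicates 1 to 5 it stood at 169.9, 160.3, 143, 221 and 174 CPM. The groups overlapped only through replicate 4, since the other combination libraries lay below the lowest R1881 library. SREBF2 was lower by a log2 fold change of -0.37 (SE 0.0772, 95% interval -0.54 to -0.21, limma adjusted p = 0.000664), from 223 ± 17.0 CPM (SD, n = 10) to 174 ± 29 CPM (SD, n = 5). Without replicate 4 the value was -0.46 (adjusted p = 2.41e-06).

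SREBF1 (chr17:17810399-17837002, minus strand) ranged from 144 to 275 CPM in R1881, with a median of 177. In combination replicates 1 to 5 it stood at 145, 164, 107, 363 and 153 CPM, so that the combination held both the lowest and the highest value of all libraries. The log2 fold change was -0.11 (SE 0.204, 95% interval -0.54 to 0.31) and did not pass the test (adjusted p = 0.685). The group means were 187 ± 37.5 CPM (SD, n = 10) and 186 ± 101 CPM (SD, n = 5). Without replicate 4 SREBF1 was lower, by a log2 fold change of -0.39 (95% interval -0.66 to -0.12, adjusted p = 0.0175), with the groups still overlapping. Without replicate 3, the library of lowest GC trend, it was 0.05 (adjusted p = 0.856). Without both replicates 3 and 4 it was -0.26 and did not pass (limma adjusted p = 0.109). The call on SREBF1 thus depended on which of these libraries were included.

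A promoter window of each gene is shown because that of SREBF2 carries a match to the sterol regulatory element. The window of SREBF1 does not within the same distance. Only the windows at these RefSeq starts were searched, so any other start of SREBF1 was not covered. The stretches are the RefSeq sequence (GRCh38.p14) before the RefSeq start, without annotated exons of the gene itself (an exon of SREBF2-AS1 lies within the SREBF2 stretch), 5′ to 3′ on the strand of the gene, for SREBF2 chr22:41832855-41833104 on the plus strand and for SREBF1 chr17:17837003-17837236 on the minus strand. Capitals mark matches to TCACNCCAC (a shortened sterol regulatory element), the E-box CACGTG (the wider form CANNTG was also searched), the CCAAT box and the GC box GGGCGG, on either strand (the reverse of the last 2 reads ATTGG and CCGCCC).
SREBF2: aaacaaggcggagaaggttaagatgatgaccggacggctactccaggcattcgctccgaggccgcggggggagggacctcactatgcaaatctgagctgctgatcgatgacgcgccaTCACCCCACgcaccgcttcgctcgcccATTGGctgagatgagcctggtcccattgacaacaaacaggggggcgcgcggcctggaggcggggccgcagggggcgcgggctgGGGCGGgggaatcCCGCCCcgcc
SREBF1: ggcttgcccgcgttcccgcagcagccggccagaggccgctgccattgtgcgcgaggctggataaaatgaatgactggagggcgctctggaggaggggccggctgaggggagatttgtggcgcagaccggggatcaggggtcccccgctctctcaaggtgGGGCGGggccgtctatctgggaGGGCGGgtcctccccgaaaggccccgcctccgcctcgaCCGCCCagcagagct
In SREBF2 a 10-letter sterol regulatory element began at position -134 from the start, overlapping the TCACNCCAC match at -133, with a CCAAT box at -106 and 2 GC boxes. Of 35116 promoter windows of 250 bases, 0.0342% held that 10-letter element and 0.883% held TCACNCCAC. The SREBF1 window held 3 GC boxes and none of the other letters searched. GC boxes were found in 42.6%, CCAAT boxes in 32.0% and CANNTG in 61.8% of all windows. A match is a description of the letters and not a measured binding site.

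SCAP and INSIG2, which pull the SREBP precursor in opposite directions, moved in opposite directions. SCAP (chr3:47413681-47477126, minus strand) ranged from 109 to 159 CPM in R1881, with a median of 129.9, and stood at 73.9, 70.9, 64.3, 117 and 79.8 CPM in combination replicates 1 to 5. Again only replicate 4 reached into the R1881 range. SCAP was lower by a log2 fold change of -0.67 (SE 0.115, 95% interval -0.91 to -0.43, limma adjusted p = 0.000112), which is 0.629-fold, and by -0.81 (adjusted p = 1.63e-07) without replicate 4. The group means were 127 ± 16.1 CPM (SD, n = 10) and 81.2 ± 20.9 CPM (SD, n = 5).

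INSIG2 (chr2:118088452-118110997, plus strand) ranged from 20.8 to 25.1 CPM in R1881, with a median of 23.3. It stood at 44.8, 46.0, 48, 38.9 and 45.0 CPM in combination replicates 1 to 5. Every combination library was above every R1881 library, and replicate 4 was the lowest of the 5. INSIG2 was higher by a log2 fold change of 0.92 (SE 0.0549, 95% interval 0.80 to 1.04, limma adjusted p = 1.89e-10), which is 1.89-fold, from 23.3 ± 1.46 CPM (SD, n = 10) to 44.5 ± 3.37 CPM (SD, n = 5). INSIG1, the related retention factor and itself a well-known SREBP target, was not among the 10 genes but in the list of the same pathway, and it moved the other way. Its range was 165 to 184 CPM in R1881 and 90.6 to 104 CPM in the combination, a log2 fold change of -0.86 (adjusted p = 1.10e-12).

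The promoters of SCAP (chr3:47475956-47476191, minus strand) and INSIG2 (chr2:118088221-118088451, plus strand) are shown because these genes, with opposite roles, had the largest log2 fold changes of the machinery in either direction by limma with all libraries. They are RefSeq sequence of GRCh38.p14, with capitals as above.
SCAP: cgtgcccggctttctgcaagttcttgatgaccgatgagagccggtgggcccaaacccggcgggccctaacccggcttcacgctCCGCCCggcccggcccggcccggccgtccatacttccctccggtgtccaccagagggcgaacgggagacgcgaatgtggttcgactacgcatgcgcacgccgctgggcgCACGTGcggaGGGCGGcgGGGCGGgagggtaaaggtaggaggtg
INSIG2: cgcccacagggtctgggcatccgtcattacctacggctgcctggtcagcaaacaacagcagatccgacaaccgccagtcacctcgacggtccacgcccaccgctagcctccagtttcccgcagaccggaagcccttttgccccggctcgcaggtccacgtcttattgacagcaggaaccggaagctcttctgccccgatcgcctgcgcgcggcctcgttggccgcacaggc
SCAP held the E-box CACGTG at position -58 and 3 GC boxes, and CACGTG was found in 6.34% of all windows. INSIG2 held no match within the printed stretch and 1 GC box at position -7, which lies in the part left out because it is annotated as exon. AGAACA, one arm of the androgen response element, was in 0 of the 14 windows of the 9 genes with an entry and in 12.4% of all windows. Some of the 14 windows overlap each other, and they are too few to read this as a difference from all windows.

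The proteases also differed from each other. MBTPS2 (chrX:21839617-21885423, plus strand), the site-2 protease that makes the second cut within the membrane, ranged from 96.5 to 119 CPM in R1881, with a median of 109.9. In combination replicates 1 to 5 it stood at 82.2, 84.9, 85.0, 72.3 and 82.5 CPM, all below the R1881 libraries. Its log2 fold change was -0.42 (SE 0.0537, 95% interval -0.53 to -0.30, limma adjusted p = 4.61e-06), from 109 ± 7.84 CPM (SD, n = 10) to 81.4 ± 5.26 CPM (SD, n = 5). MBTPS1 (chr16:84053761-84116942, minus strand), the site-1 protease, ranged from 94.8 to 101 CPM in R1881, with a median of 100.1, and stood at 95.2, 94.7, 91.2, 99.5 and 97.7 CPM in the combination. The ranges overlapped and the log2 fold change of -0.05 (SE 0.0292, 95% interval -0.11 to 0.01) did not pass the test (adjusted p = 0.165).

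FASN (chr17:82078338-82098294, minus strand), the last enzyme of the pathway, had the largest fold change of the 10 genes by limma with all libraries, and the largest spread in both groups. INSIG2 changed more than FASN with edgeR (0.94 against -0.89), with DESeq2 (0.95 against -0.88) and without combination replicate 3 (0.89 against -0.88). In R1881 FASN ranged from 498 to 1329.6 CPM, with a median of 686. In combination replicates 1 to 5 it stood at 274, 302, 165, 1029.8 and 299 CPM. Replicate 4 lay within the upper part of the R1881 range, and the other combination libraries lay below every R1881 library. FASN was lower by a log2 fold change of -1.13 (SE 0.303, 95% interval -1.77 to -0.49, limma adjusted p = 0.00513), which is 0.456-fold. The means were 761 ± 237 CPM (SD, n = 10) and 414 ± 349 CPM (SD, n = 5), or 259.6 ± 64.5 CPM without replicate 4. Without replicate 4 the log2 fold change was -1.54 (95% interval -1.94 to -1.13, adjusted p = 1.95e-06). With DESeq2 on the recovered reads it was -0.88 (adjusted p = 0.0511) and against R1881 libraries 51 to 55 alone it was -0.97 (limma adjusted p = 0.0575), both on the other side of the threshold.

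ACLY and ACACA, which supply FASN with acetyl-CoA and malonyl-CoA, were lower with little spread. ACLY (chr17:41866917-41930542, minus strand) ranged from 747 to 829 CPM in R1881, with a median of 806, and stood at 495, 487, 449, 527 and 517 CPM in the combination. No library of either group reached the range of the other. The log2 fold change was -0.68 (SE 0.0385, 95% interval -0.76 to -0.60, limma adjusted p = 8.31e-11), from 795 ± 32.3 CPM (SD, n = 10) to 495 ± 30.3 CPM (SD, n = 5). ACACA (chr17:37084992-37406836, minus strand) ranged from 1037 to 1169 CPM in R1881, with a median of 1110.3, and stood at 784, 719.9, 801, 713 and 768 CPM in the combination. It too was separated between groups, with a log2 fold change of -0.55 (SE 0.0361, 95% interval -0.62 to -0.47, adjusted p = 7.63e-10).

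ACACB (chr12:109116587-109268226, plus strand), the carboxylase at the mitochondrial surface whose malonyl-CoA restrains fatty acid oxidation, was expressed at a low level and moved against ACACA. In R1881 it ranged from 9.94 to 12.4 CPM, with a median of 11.0, and in combination replicates 1 to 5 it stood at 13.2, 12.4, 12.6, 16.6 and 13.1 CPM. The groups met at 12.4 CPM and replicate 4 was the highest. ACACB was higher by a log2 fold change of 0.29 (SE 0.0718, 95% interval 0.14 to 0.44, limma adjusted p = 0.00271), and by 0.22 (adjusted p = 0.00858) without replicate 4. These values rested on 166 to 351 reads per library, against 15121 to 26317 for ACACA.

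The promoter of ACLY (chr17:41919023-41919272, minus strand, RefSeq, GRCh38.p14) is shown as that of the gene with the smallest adjusted p among the 10 by limma. Its RefSeq start, like that of SCAP, lies inside the gene bounds given above, which are those of GENCODE.
ACLY: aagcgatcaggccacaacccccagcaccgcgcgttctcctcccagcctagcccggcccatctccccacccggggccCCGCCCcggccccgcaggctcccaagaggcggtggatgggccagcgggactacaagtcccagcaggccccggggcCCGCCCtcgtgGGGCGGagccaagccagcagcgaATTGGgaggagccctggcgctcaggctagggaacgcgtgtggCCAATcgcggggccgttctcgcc
It held 2 CCAAT boxes and 3 GC boxes and none of the other letters searched. FASN had no entry in the promoter table. Of the 14 windows, those of SREBF2 alone held TCACNCCAC or the 10-letter element.

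**Figure D2:**
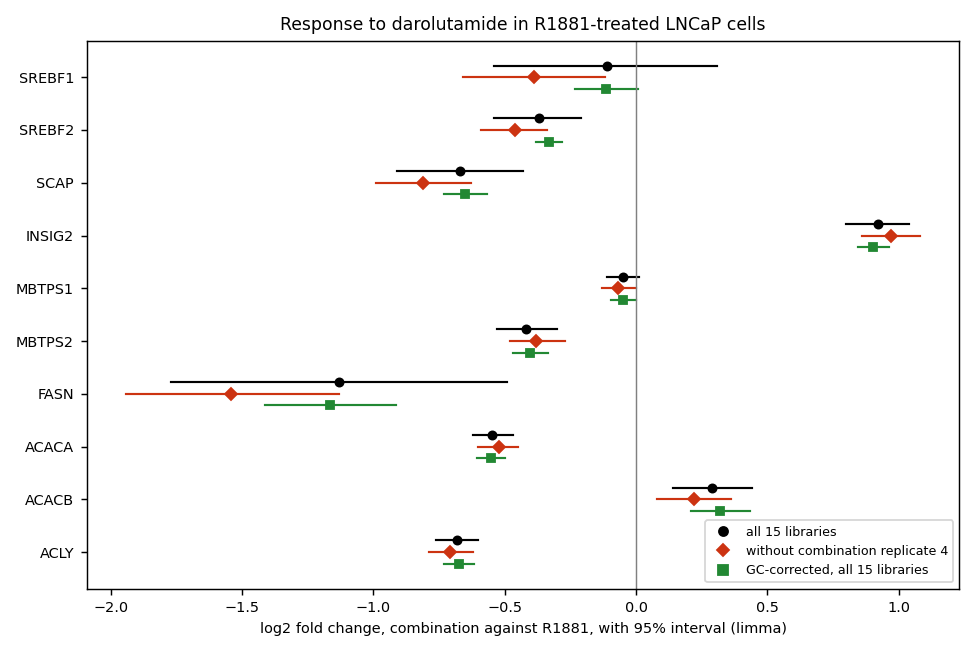
Log2 fold change of each gene, combination against R1881, with its 95% interval from limma, for all 15 libraries (circles), without combination replicate 4 (diamonds) and after GC correction of all 15 libraries (squares). The interval of SREBF1 spans 0 with all libraries, also after GC correction, and not without replicate 4, and the other genes keep their side of 0 in all 3 fits, with the upper bound of MBTPS1 at 0.01 or less.

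Ratios between genes within each library, as differences of log2(CPM + 0.5), were compared by exact permutation over the 3003 possible assignments of libraries, which can give a two-sided p of 0.000666 at the smallest. INSIG2 relative to SCAP was -2.91 to -2.10 on the log2 scale in R1881 and -0.72, -0.62, -0.42, -1.58 and -0.82 in combination replicates 1 to 5. The ratio was therefore higher in 5 of 5 combination libraries than in any R1881 library, by 1.59 on the log2 scale or 3.01-fold (exact permutation p = 0.000666, adjusted over 4 ratios 0.00133). ACACA relative to ACACB fell from a mean of 6.60 (range 6.42 to 6.73) to 5.76 (5.39 to 5.94), a difference of -0.84 in log2 that was also without overlap (exact permutation p = 0.000666, adjusted 0.00133). SREBF1 relative to SREBF2 was -0.46 to 0.09 in R1881 and -0.42 to 0.71 in the combination, a difference of 0.26 (exact permutation p = 0.161, adjusted 0.184). Without replicate 4 this difference was 0.08 (exact permutation, adjusted p = 0.484), and after GC correction it was 0.22 (exact permutation, adjusted p = 0.016). FASN relative to ACLY was -0.60 to 0.68 and -1.44 to 0.97, a difference of -0.45 (exact permutation p = 0.184, adjusted 0.184). Without replicate 4 the difference in FASN relative to ACLY was -0.83 (exact permutation, adjusted p = 0.00266), and after GC correction it was -0.49 (adjusted p = 0.00888).

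**Figure D3:**
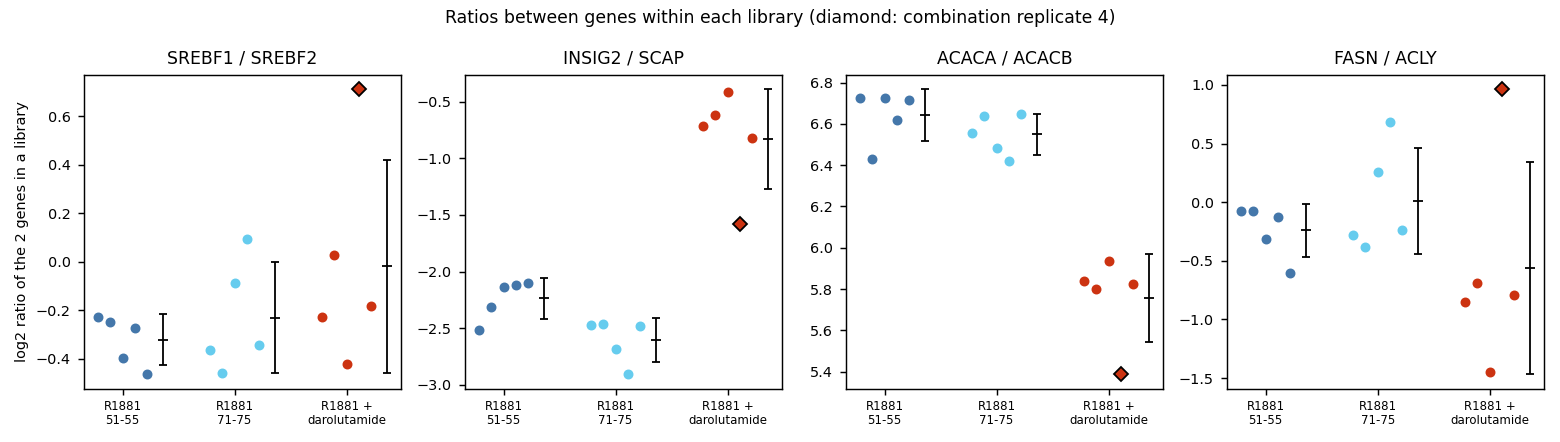
Log2 ratio of the CPM of 2 genes within each library, by run of R1881 libraries and for the combination, with mean and SD beside each set; the diamond is combination replicate 4. INSIG2 over SCAP and ACACA over ACACB separate the treatments in every library, and the other ratios overlap, with the diamond highest at 0.71 and 0.97.

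Per length of the canonical transcript, the levels of the 10 genes spanned a wide range. In R1881 the median was highest for ACLY (188 CPM per kb), followed by ACACA (111), FASN (81.0), SREBF2 (42.8), SREBF1 (36.0), SCAP (30.5), MBTPS2 (24.7), MBTPS1 (22.9), INSIG2 (6.54) and ACACB (1.17). The ranges of neighbours overlapped between ACACA and FASN and from SREBF2 down to MBTPS1, and they did not overlap between ACLY and ACACA, between FASN and SREBF2, between MBTPS1 and INSIG2, or between INSIG2 and ACACB. In the combination the medians in CPM per kb were 115 for ACLY, 76.7 for ACACA, 35.3 for FASN, 32.4 for SREBF2, 31.3 for SREBF1, 21.8 for MBTPS1, 18.6 for MBTPS2, 17.4 for SCAP, 12.6 for INSIG2 and 1.39 for ACACB. SCAP, above MBTPS1 and MBTPS2 in R1881 by its median, was below both in the combination. The combination ranges overlapped, however, at 15.1 to 27.6 CPM per kb for SCAP, 20.8 to 22.7 for MBTPS1 and 16.3 to 19.1 for MBTPS2.

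The R1881 libraries of the 2 runs, which had the same treatment, also differed in some of these genes. SCAP was higher in libraries 71 to 75 than in 51 to 55 by 0.26 on the log2 scale (limma adjusted p = 0.0358), and MBTPS2 was lower by a log2 difference of -0.17 (adjusted p = 0.0295). Of all genes 2.29% were lower and 0.805% were higher between these runs. The other 8 genes did not pass, with differences of 0.25 in SREBF1, 0.32 in FASN and 0.16 in SREBF2 (adjusted p = 0.198, 0.262 and 0.0574). Against either run alone, the response to darolutamide of SCAP was -0.54 (limma adjusted p = 0.00663, libraries 51 to 55) and -0.80 (adjusted p = 0.000663, libraries 71 to 75). That of MBTPS2 was -0.50 (adjusted p = 4.52e-06) and -0.33 (adjusted p = 0.000373), so both genes kept their call. SREBF1 was 0.01 against libraries 51 to 55 and -0.24 against 71 to 75, and passed against neither (adjusted p = 0.98 and 0.533).

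GC content of the transcript moved with the spread of several of these genes. FASN (65.3% GC), SREBF1 (63.2%), SCAP (61.7%) and SREBF2 (58.0%) were highest in the library with the highest GC trend and lowest in the library with the lowest trend in both groups. INSIG2 (36.3%) was lowest in the library of highest trend in both groups. When the GC trend of each library was removed by a spline over the 14667 genes with a GC value, the SD of SREBF1 in the combination was 0.20 on the log2 scale in place of 0.65, and that of FASN 0.41 in place of 0.97. The log2 fold changes after correction were -1.16 for FASN (limma adjusted p = 3.19e-08), -0.65 for SCAP (6.25e-12), -0.33 for SREBF2 (9.81e-11), 0.90 for INSIG2 (5.13e-17) and -0.11 for SREBF1 (0.0967). In corrected values SREBF2, SCAP, FASN and ACACB no longer overlapped between groups. On the log2 scale FASN ranged from 9.25 to 9.88 in R1881 and from 7.92 to 9.05 in the combination. ACACB ranged from 3.38 to 3.69 in R1881 and from 3.75 to 3.93 in the combination. Replicate 4 remained the highest combination library for FASN and for SREBF1 after correction, at 9.05 and 7.74. The corrected calls were again 6 lower and 2 higher, while of the 14667 genes 4653 were lower and 4406 higher after correction.

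**Figure D4:**
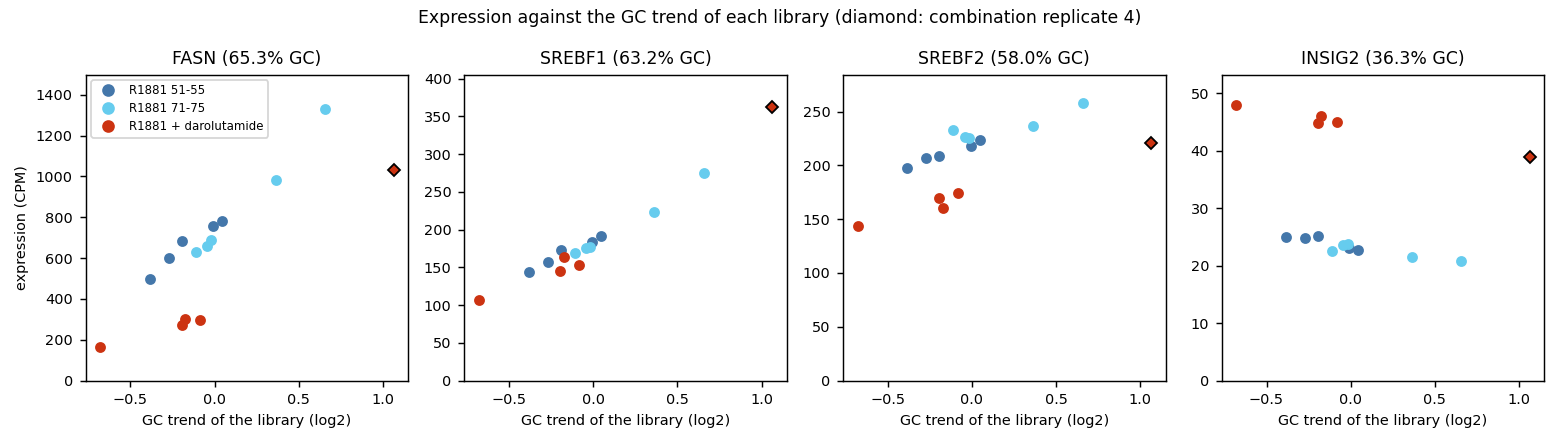
Expression (CPM, linear axis from 0) of FASN, SREBF1, SREBF2 and INSIG2 in each library against the GC trend of that library, which is the median log2 deviation of genes of high GC content minus that of genes of low GC content; the diamond is combination replicate 4. Within each treatment FASN, SREBF1 and SREBF2 are highest and INSIG2 lowest at the highest trend, and at a similar trend the combination lies below R1881 in FASN and SREBF2 and above it in INSIG2.

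The other genes of the pathway were taken from 8 lists by function, with 107 of 115 genes in the table, of which 49 were lower and 20 higher, with a median log2 fold change of -0.12 over all 107. Without combination replicate 4 the counts were 53 and 19, while of all 17272 genes 4781 were lower and 4096 higher in that fit, in place of 4098 and 3946. Among 18 genes of SREBP escort, retention and processing, 9 were lower and 4 were higher (median -0.08). The lower ones included SEC24D, a cargo adaptor of the COPII vesicles that carry SCAP to the Golgi, from 93.8 ± 5.54 to 41.8 ± 2.30 CPM, and INSIG1. C12orf49, a partner of the site-1 protease, was higher by 0.37 on the log2 scale (adjusted p = 3.33e-07). Of 14 transcription partners and regulators of SREBF1 expression 10 did not pass, 3 were lower (MLX by a log2 fold change of -0.40) and 1 was higher, MLXIPL, at a mean of 1.53 CPM in the combination and at 3.11 CPM in replicate 4. Without replicate 4 MLXIPL did not pass (0.44, adjusted p = 0.0523). Of 10 genes supplying acetyl-CoA and NADPH, 5 were lower and 5 did not pass, with all 10 values between -1.01 and -0.08. They were led by IDH1, the cytosolic isocitrate dehydrogenase that yields NADPH, from 1167 ± 57.4 to 579 ± 34.7 CPM (SD, log2 fold change -1.01, adjusted p = 8.11e-13).

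Downstream of palmitate, 10 of 20 genes of fatty acid elongation, desaturation and activation were lower and 6 were higher (median -0.17). ACSL3, which activates long-chain fatty acids, had the largest change of all listed genes, a log2 fold change of -1.98, and the elongase ELOVL7 changed by -1.39. ELOVL6 and the desaturase SCD5 were higher, by 0.43 and 0.42 on the log2 scale. Of 12 genes of glycerolipid assembly 3 were lower, with LPIN1 at -0.51, and 5 were higher, with DGAT2 at 0.50 (median 0.14). Of 5 genes that regulate or use malonyl-CoA, CPT1A was lower at -0.29 and CPT1C and MID1IP1 were higher at 0.70 and 0.26, of which MID1IP1 did not pass without replicate 4 (0.14, adjusted p = 0.0932). In mitochondrial fatty acid synthesis 2 of 7 were lower, MCAT at -0.34 and NDUFAB1 at -0.11, and CBR4 was higher at 0.35. NDUFAB1 did not pass without replicate 4 (-0.10, adjusted p = 0.0518). Cholesterol synthesis and LDL uptake, the main programme of SREBF2, had 16 of 21 genes lower and 1 higher, TM7SF2 (62.4% GC) at 0.57 (median -0.50), or 0.40 without replicate 4 (adjusted p = 0.00393). FDFT1, which makes squalene, was at -0.86. Background shares of 23.7% and 22.8% apply to the counts with all libraries in each of these lists.

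**Figure D5:**
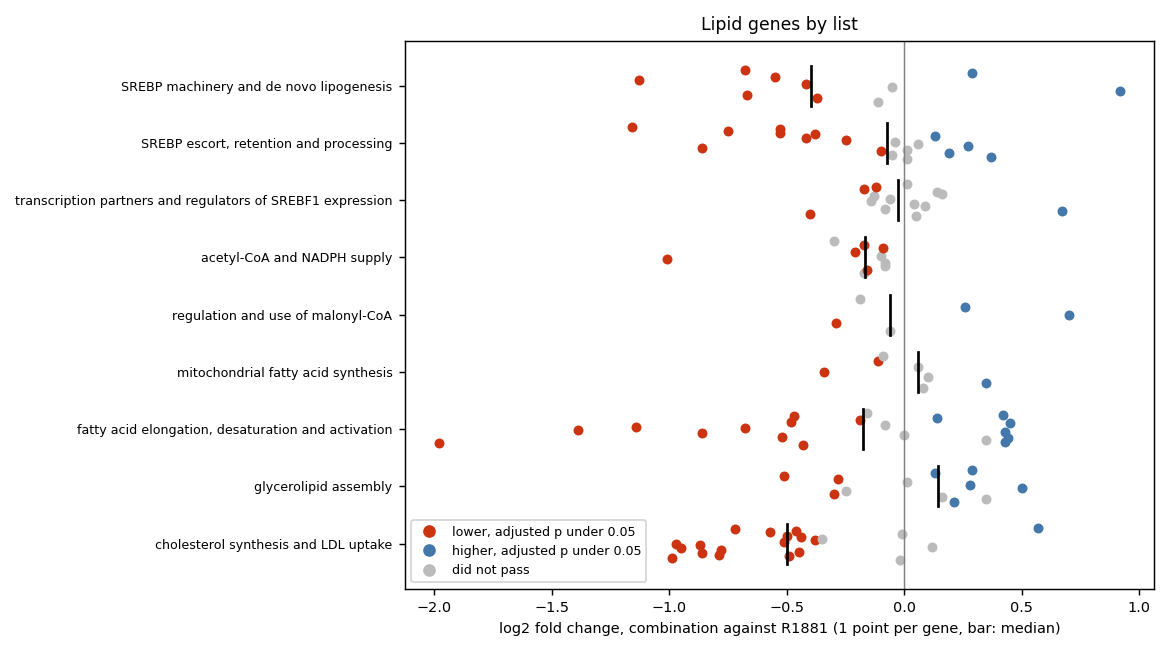
Log2 fold change, combination against R1881, of each gene of the 10 genes described (top) and of the 8 lists; red and blue points passed the limma test as lower and higher, grey points did not, and black bars are medians. The median is lowest for cholesterol synthesis and LDL uptake, at -0.50, and highest for glycerolipid assembly, at 0.14.

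Likeness of profile was measured as the root mean square distance of log2 values, each relative to the gene's R1881 mean, over the 15 libraries and 15692 other genes with a mean of at least 1 CPM. The genes most like FASN were SLC9A3R2 (distance 0.177), CORO1B (0.204) and GADD45G (0.270), with transcript GC contents of 67.2%, 64.3% and 64%. SCAP ranked 103 for FASN (0.478), ACLY 624 (0.602) and SREBF1 761 (0.620). Those most like SREBF1 were PAK4 (0.0399), PIEZO1 (0.0518) and SH3GL1 (0.0528), with GC contents of 64.9%, 64.3% and 64.3%. In each of these 6 genes combination replicate 4 held the highest combination value, as in FASN and SREBF1. Likeness was measured over all libraries, replicate 4 included, so this follows from how the genes were picked and is no separate evidence.

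Annotated exons of some members lie under exons of another gene, and to which gene, if any, reads of these stretches were counted is not known here. The overlap was 12.2% of the exon bases of MBTPS2 with YY2 on the same strand, and 9.08% of SREBF2 with SREBF2-AS1 and 6.75% of SREBF1 with RAI1 on the opposite strand. Whether strand was used in counting is not given in the sources used here, so reads of such stretches cannot be told apart.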

How the data were processed

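The 10 members and the pathway lists were chosen with earlier results of these data known. Libraries were made by poly-T selection with a stranded kit and sequenced as 50-base single-end reads. Per the labels' processing notes and the study's methods, the authors used bcl2fastq 2.17, STAR, featureCounts (Subread) and GRCh38. Versions of STAR and Subread, the annotation, the strand setting and the filter on genes are not given in the sources used here. The deposited table holds a scaled signal per gene, called CPM by the authors: 100% of values equalled a whole number of reads (tolerance 0.001) times a constant of the library, and columns summed to 1005403 to 1078567. The recovered reads numbered 22177686 per library on average and were used in alternatives only. As the values were scaled, all 17272 genes were tested with limma 3.58.1 (R 4.3.3, trend, log2(CPM + 0.5), Benjamini-Hochberg adjusted p under 0.05). The study calls the libraries biological replicates, the labels name no cultures, and the p-values rest on the spread among the libraries, which may be technical. In 2 libraries at most 2.12% of genes had equal reads, so no library was treated as a copy of another.

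Ratios were tested by two-sided exact permutation, adjusted over 4. Positions, lengths and GC contents are from GENCODE version 44 (14667 genes matched, 838 of them through a RefSeq synonym), which may differ from the authors' annotation. Promoters are RefSeq windows, with 9 of the 10 genes matched. From each list the genes with the 2 smallest p in each direction were named, except 1 that is not reported here. The genes most like FASN and SREBF1 in profile were the 3 at the smallest distance. Alternatives were edgeR 4.0.16 with TMM, DESeq2 1.42.0 and voom with quality weights on recovered reads, scaling by library totals, pseudocounts of 0.1 and 1, a minimum mean of 1 CPM, a block for replicate number, each run of R1881 libraries alone, a term for these runs, a GC correction (spline with 5 degrees of freedom per library), each library left out, and combination replicates 3 and 4 left out.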

Additional observations from a re-analysis of the deposited data

Results flagged for a closer look

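Of 28 groups of values examined, 5 held a library far from the others, and in all 5 it was combination replicate 4, the library with the highest GC trend. Chance alone would flag about 1 in 20 groups, and these groups share libraries. SREBF1 was at 363 CPM in it, against 107 to 164 CPM in the other combination libraries. FASN was at 1029.8 CPM, against 165 to 302 CPM, and ACACB at 16.6 CPM, against 12.4 to 13.2 CPM. MBTPS2, of low GC content (39.9%), was at 72.3 CPM, against 82.2 to 85.0 CPM. The log2 ratio of ACACA to ACACB was 5.39, against 5.80 to 5.94. After GC correction FASN was at 9.05 on the log2 scale in this library, against 7.92 to 8.32 in the other combination libraries, and MBTPS2 at 6.34, against 6.34 to 6.40. The source of the difference in this library was not tested.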

How the results depend on the processing

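Over 28 alternatives, SREBF2, SCAP, INSIG2, MBTPS2, ACLY, ACACA and ACACB kept their direction and their call, with log2 fold changes of -0.46 to -0.29, -0.81 to -0.54, 0.87 to 0.99, -0.50 to -0.33, -0.72 to -0.61, -0.57 to -0.47 and 0.22 to 0.36. FASN ranged from -1.54 to -0.88 and missed the threshold with DESeq2 (-0.88, adjusted p = 0.0511) and against R1881 libraries 51 to 55 (-0.97, adjusted p = 0.0575). SREBF1, uncalled with all libraries, was 0.01 against libraries 51 to 55, 0.05 without combination replicate 3 and -0.39 (adjusted p = 0.0175) without replicate 4. MBTPS1 was 0.02 with library totals. Among the 10 genes 5 to 7 were lower and 2 higher, while over all genes tested 3030 to 4879 were lower and 3077 to 5326 higher. SREBF1 relative to SREBF2 passed after GC correction (0.22, adjusted p = 0.016), and FASN relative to ACLY passed after GC correction (-0.49, adjusted p = 0.00888), without combination replicate 4 (-0.83, adjusted p = 0.00266) and without replicates 3 and 4 (-0.66, adjusted p = 0.00932), all by exact permutation. With each library left out in turn, the ratio of FASN to ACLY was -0.83 to -0.23 and that of SREBF1 to SREBF2 0.08 to 0.36. The cause of these changes was not tested.

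The replicate numbers did not pair the libraries: deviations of same-numbered libraries correlated by -0.139 to 0.335, and 0 of 5 combination libraries were closest to their own number. With the replicate number as a block, 3165 genes were lower and 3077 higher, against 4098 and 3946 without it, and the calls on the 10 genes were 6 and 2 again (FASN -1.17, adjusted p = 0.0193, and ACACB 0.24, adjusted p = 0.0445). Depth limited ACACB most, at 166 to 351 reads. The combination libraries are all numbered 86 to 90 and no R1881 library is, so no fit could separate number run from treatment.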

Other observations

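CYP51A1, a demethylase of cholesterol synthesis, was listed at means of 0.866 CPM in R1881 and 1.03 CPM in the combination, where FDFT1 of the same pathway was listed at 488 CPM in R1881. It was singled out after its values had been seen, and no cause was tested.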
